A study of Homo sapiens with 12 samples.

Results

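RALB, RALA, HRAS, NRAS, RRAS, RRAS2, RAP1A, RAP1B and RAP2B are 9 genes of the RAS subfamily of small GTPases. They were picked by name out of the 54127 genes in the count files, as close relatives of RALB, because the RALB transcript was far lower after depletion of choline kinase alpha (CHKA). That same difference is described below, so for the 9 genes it is given as values, with no p-value, and the fit's calls are counted once as a description from which nothing is read. All 9 were among the 14501 genes that passed the expression filter, and no other gene was in the set. The set does not hold every gene of the subfamily.

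The cells were C4-2, a prostate cancer line of human origin that descends from LNCaP and grows with little androgen. One group, siCHKA, received a pooled siRNA against CHKA at 50 nM, and the other, siNT, nontargeting siRNA at 50 nM, both by reverse transfection with Lipofectamine RNAiMAX in RPMI with serum. Each group had 6 samples, and RNA was sequenced after enrichment of polyadenylated transcripts. All samples came from a single cell line and 1 siRNA pool, the labels give no time after transfection, and they speak of flow-sorted cells while the study's methods for RNA sequencing do not. The study calls the replicates biological, but a figure legend speaks of triplicate experiments for the knockdown genes and of 6 replicates in a later panel. Neither it nor the labels say whether the samples were separate cultures, so the number of independent experiments per group may be below 6. Every p-value below sets the difference between the groups against the spread between these samples, part of which may be technical. It treats the 6 samples of a group as independent, which is not known.

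RAS family proteins are switches that bind GTP in the active state and GDP in the inactive state. Guanine nucleotide exchange factors load them with GTP, and GTPase activating proteins return them to the GDP state. RAS proteins pass growth factor signals to the RAF kinases and their scaffolds, RAP proteins act on cell adhesion and junctions, and RAL proteins, which are loaded by exchange factors that RAS itself recruits, act on the exocyst, the complex that tethers secretory vesicles to the plasma membrane. Nearly all of them are anchored in membranes by a lipid added to a cysteine at the C-terminus, after which the enzyme ICMT methylates that cysteine. In prostate cancer these proteins are studied for signaling downstream of growth factor receptors and for cell migration.

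The ends of the coding sequences are shown because they hold the codons of that lipid-modified C-terminus, on which the largest difference among the partner genes bears. Each line gives the last 27 bases of the coding sequence of the gene's canonical transcript, 5′ to 3′, from GENCODE release 44 on GRCh38. The capitals mark the last 12 bases before the stop codon, which begin with a cysteine codon, TGT or TGC, in all 9 genes.
RALA: atcagagaaagaTGCTGCATTTTAtaa
RALB: tttaaagaaagaTGTTGCTTACTAtga
HRAS: atgagctgcaagTGTGTGCTCTCCtga
NRAS: atgggattgccaTGTGTGGTGATGtaa
RRAS: gggggctgccccTGCGTCCTCCTGtag
RRAS2: aaaggctgccatTGTGTCATTTTCtag
RAP1A: aaaaagaaatcaTGTCTGCTGCTCtag
RAP1B: aaaaagtcatcaTGTCAGCTGCTTtaa
RAP2B: tgctgctcggccTGCGTGATCCTCtga

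RALA and RALB have coding sequences of equal length, 621 bases each, and are identical at 73.7% of aligned bases. The other close pairs are RAP1A with RAP1B at 82.9%, HRAS with NRAS at 73.4% and RRAS with RRAS2 at 61.2%. Within each of these 4 pairs the longest run of bases that both transcripts share was 13 to 29 bases, shorter than the 40-base reads. Reads of RALB, HRAS and RRAS were the surest to place, with no stretch of 40 bases in common with another annotated gene. RRAS2 shared 12.9% of its 40-base stretches with the pseudogene RRAS2P1, and RAP1B shared 8.11% with other genes, so their counts are less certain. For the other 4 genes the share was between 0.187% and 3.64%.

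Reads counted on genes ranged from 10685184 to 24246055 per sample. CHKA itself was measured at 1.91 to 4.67 CPM (TMM-normalized reads scaled to library size) in the siCHKA samples and at 36.7 to 43.3 CPM in the siNT samples, a log2 fold change of -3.88 (standard error, SE, 0.14; edgeR adjusted p = 5.89e-13). Of the markers of the labelled cell type, HOXB13 was at 253 to 361 CPM and KLK3 at 1726 to 3811 CPM, and of the leukocyte markers, CD3E was at 0 in all 12 samples, PTPRC at no more than 0.256 CPM and CD68 at 2.39 to 5.97 CPM. Of the basal epithelial markers, KRT5 and TP63 did not exceed 0.0854 CPM and KRT14 was at 0.981 to 2.09 CPM, and the endothelial marker VWF was at 1.13 to 3.65 CPM. COL1A1 was present at 11.4 to 30.03 CPM, while the other fibroblast markers, COL3A1 and DCN, did not exceed 0.642 CPM. Among the siCHKA samples, replicates 1, 3 and 5 stood apart from replicates 2, 4 and 6: across genes, deviations from the group mean correlated at 0.20 to 0.44 within these sets and at -0.61 to -0.45 between them. The labels give no batch that separates the sets, so a log2 fold change that differs between them by over 1.5 times is given for each. In bulk RNA, fewer cells that express a gene and less of its RNA per cell cannot be told apart.

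RALB, which belongs to the pair of RAL GTPases and is linked to the exocyst and the kinase TBK1, was much lower after siCHKA. In the siCHKA samples RALB lay at 11.5 CPM in the lowest, 12.4 CPM at the median and 13.5 CPM in the highest, from 142 to 279 reads. In the siNT samples it lay at 52.7 CPM in the lowest, 57.6 CPM at the median and 59.4 CPM in the highest, from 606 to 1344 reads. Every siCHKA sample was thus far below every siNT sample, with little spread inside either group. RALB (ENSG00000144118), at 120240064 to 120294710 of chromosome 2 (GRCh38, plus strand), averaged 12.4 ± 0.705 CPM (SD, n = 6) against 57.0 ± 2.48 CPM (SD, n = 6). Its log2 fold change was -2.20 (SE 0.05), which leaves 21.8% of the siNT level, the 35th lowest of the 14501 fold changes. Replicates 1, 3 and 5 gave -2.24 and replicates 2, 4 and 6 gave -2.16, so both sets showed the difference at nearly the same size.

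RALA, the other RAL GTPase, with which RALB shares its exchange factors and effectors, differed far less. Its level in the siCHKA samples had a minimum of 48.3 CPM, a median of 53.7 CPM and a maximum of 55.1 CPM. The siNT samples ranged from 52.0 to 67.0 CPM around a median of 57.3 CPM. The groups overlapped, and the highest value of the 12 was siNT replicate 4. RALA (ENSG00000006451), at 39623565 to 39708120 of chromosome 7 (plus strand), averaged 52.5 ± 3.01 CPM (SD, n = 6) in siCHKA samples against 58.0 ± 5.59 CPM (SD, n = 6) in siNT samples, for a log2 fold change of -0.14 (SE 0.06). Replicates 1, 3 and 5 gave -0.09 and replicates 2, 4 and 6 gave -0.19.

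The balance of the pair therefore differed between the groups. RALB made up 49.6 ± 2.66% of the reads on the RAL genes after siNT (SD, n = 6), ranging from 47.0% to 52.7%. After siCHKA its share was 19.1 ± 1.47% (SD, n = 6), ranging from 17.8% to 21.5%. Reads on RALA thus went from about as many as on RALB to several times as many, with no overlap between the groups. These are shares of reads and not of molecules, since RALA has the longer exon sequence.

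**Figure D1:**
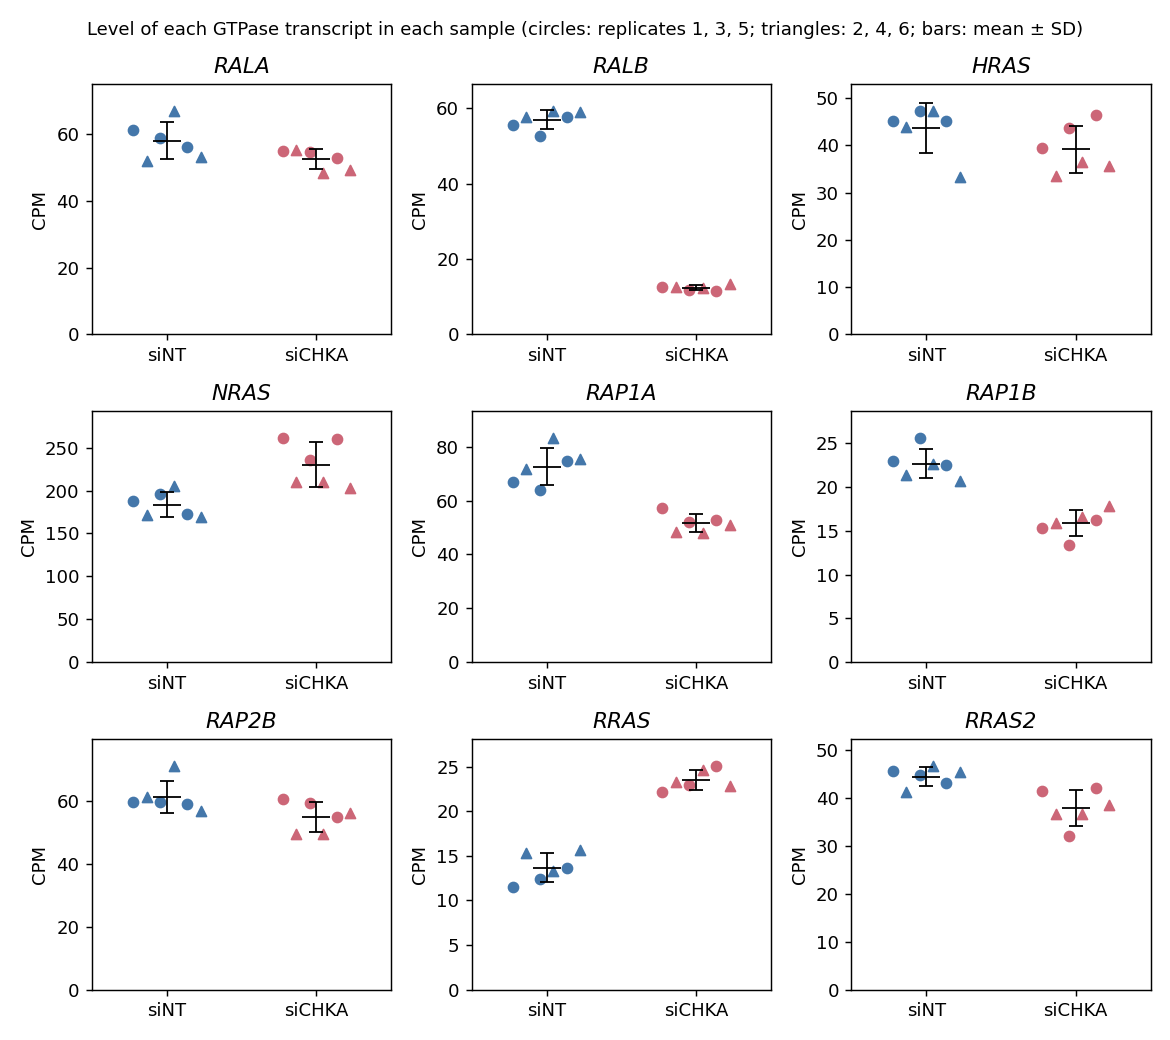
Level of each of the 9 GTPase transcripts in CPM (linear axis from 0) in the 6 siNT and 6 siCHKA samples, with replicates 1, 3 and 5 as circles, replicates 2, 4 and 6 as triangles, and bars for the mean ± SD. RALB lies at 11.5 to 13.5 CPM in siCHKA samples and 52.7 to 59.4 CPM in siNT samples; RAP1A and RAP1B are also lower without overlap, and RRAS is higher without overlap.

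NRAS, a classical RAS protein that signals to the RAF kinases, was the most abundant of the 9 transcripts and was higher on average after siCHKA. Its siCHKA samples had 203 CPM in the lowest, 223 CPM at the median and 261 CPM in the highest. Its siNT samples had 169 CPM in the lowest, 180 CPM at the median and 206 CPM in the highest. Only siCHKA replicate 6, at 203 CPM, lay inside the siNT range, whose top was siNT replicate 4. NRAS (ENSG00000213281), at 114704469 to 114716771 of chromosome 1 (minus strand), averaged 230 ± 26.2 CPM (SD, n = 6) against 184 ± 15.0 CPM (SD, n = 6), for a log2 fold change of 0.32 (SE 0.07). The size depended on the siCHKA set: replicates 1, 3 and 5 averaged 252 CPM and gave a log2 fold change of 0.46, and replicates 2, 4 and 6 averaged 208 CPM and gave 0.17.

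HRAS, the second classical RAS protein measured, did not separate the groups. Values of HRAS in the siCHKA samples ran from 33.4 CPM through a median of 38.0 CPM to 46.4 CPM. In the siNT samples they ran from 33.3 CPM through a median of 45.1 CPM to 47.4 CPM. The lowest siNT value was replicate 6, while the other 5 siNT samples were at 43.8 CPM or more. HRAS (ENSG00000174775), at 532242 to 537321 of chromosome 11 (minus strand), averaged 39.2 ± 4.99 CPM (SD, n = 6) in siCHKA samples against 43.7 ± 5.26 CPM (SD, n = 6) in siNT samples, for a log2 fold change of -0.16 (SE 0.09). Here too the sets differed, with log2 fold changes of -0.02 from replicates 1, 3 and 5 and -0.32 from replicates 2, 4 and 6.

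Both NRAS and HRAS were higher in each of siCHKA replicates 1, 3 and 5 than in any of replicates 2, 4 and 6, and so was RAP1A, at means of 54.1 and 49.2 CPM. Within the classical pair, NRAS held 80.8 ± 1.54% of the reads after siNT and 85.4 ± 0.932% after siCHKA (SD, n = 6 each). The highest siNT share was 83.6% and the lowest siCHKA share was 84.4%, so the shares did not overlap although the levels of each gene did.

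RRAS, a relative of the classical RAS proteins known for its role in integrin-mediated adhesion, was the member with the largest difference upward. Its siCHKA values were 22.2 CPM at the lowest, 23.1 CPM at the median and 25.1 CPM at the highest. Its siNT values were 11.5 CPM at the lowest, 13.5 CPM at the median and 15.7 CPM at the highest. Each siCHKA sample was above each siNT sample. RRAS (ENSG00000126458), at 49635292 to 49640143 of chromosome 19 (minus strand), averaged 23.5 ± 1.14 CPM (SD, n = 6) against 13.6 ± 1.62 CPM (SD, n = 6), which is 1.72-fold the siNT level and a log2 fold change of 0.78 (SE 0.07). The sets gave 0.77 and 0.78.

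RRAS2, also called TC21, which is the closest relative of RRAS, was slightly lower on average. The siCHKA samples of RRAS2 spanned 32.0 to 42.1 CPM around a median of 37.6 CPM. The siNT samples spanned 41.2 to 46.7 CPM around a median of 45.0 CPM. The overlap came from siCHKA replicates 1 and 5, which were above the lowest siNT sample, replicate 2. RRAS2 (ENSG00000133818), at 14277922 to 14364506 of chromosome 11 (minus strand), averaged 37.9 ± 3.70 CPM (SD, n = 6) and 44.4 ± 2.01 CPM (SD, n = 6), for a log2 fold change of -0.23 (SE 0.06). RRAS supplied 23.5 ± 2.64% of the reads of this pair after siNT and 38.4 ± 2.46% after siCHKA (SD, n = 6 each), with no overlap between 20.1 to 27.1% and 34.9 to 41.8%.

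RAP1A and RAP1B, the paired RAP1 proteins that control integrins and cell junctions, were both lower after siCHKA and by a similar amount. RAP1A lay at 48.1 CPM in the lowest, 51.7 CPM at the median and 57.2 CPM in the highest siCHKA sample. It lay at 64.03 CPM in the lowest, 73.2 CPM at the median and 83.3 CPM in the highest siNT sample. No siCHKA sample of RAP1A reached the siNT range. RAP1A (ENSG00000116473), at 111542218 to 111716691 of chromosome 1 (plus strand), averaged 51.7 ± 3.36 CPM (SD, n = 6) against 72.6 ± 6.83 CPM (SD, n = 6), for a log2 fold change of -0.49 (SE 0.06), with 71.1% of the siNT level.

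RAP1B had 13.3 CPM in the lowest, 16.03 CPM at the median and 17.8 CPM in the highest siCHKA sample. In siNT samples RAP1B had 20.7 CPM in the lowest, 22.6 CPM at the median and 25.6 CPM in the highest. Here again the groups were apart. RAP1B (ENSG00000127314), at 68610855 to 68671901 of chromosome 12 (plus strand), averaged 15.9 ± 1.51 CPM (SD, n = 6) and 22.7 ± 1.67 CPM (SD, n = 6), for a log2 fold change of -0.52 (SE 0.07). Since both were lower in like proportion, the share of RAP1A in the reads of the pair was 76.1 ± 2.73% after siNT and 76.5 ± 2.34% after siCHKA (SD, n = 6 each), and the groups overlapped.

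RAP2B, a RAP protein with effectors of its own among the MAP4K family kinases, showed a small difference. Levels of RAP2B after siCHKA were 49.4 CPM at the lowest, 55.5 CPM at the median and 60.7 CPM at the highest. After siNT they were 56.9 CPM at the lowest, 59.8 CPM at the median and 71.2 CPM at the highest. The groups overlapped, and siNT replicate 4 stood well above the other 5, which did not exceed 61.4 CPM. RAP2B (ENSG00000181467), at 153162226 to 153170627 of chromosome 3 (plus strand), averaged 55.0 ± 4.74 CPM (SD, n = 6) and 61.4 ± 5.06 CPM (SD, n = 6), for a log2 fold change of -0.16 (SE 0.07). The sets gave -0.07 for replicates 1, 3 and 5 and -0.25 for replicates 2, 4 and 6.

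**Figure D2:**
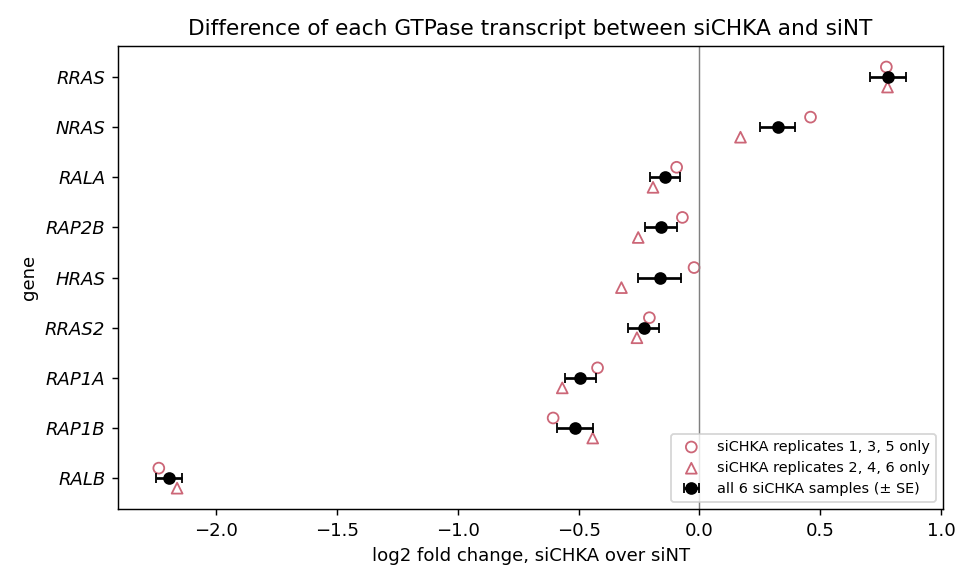
Log2 fold change of each GTPase transcript, siCHKA over siNT, from edgeR, with all 6 siCHKA samples as filled points with bars of 1 standard error, and open symbols for the fits with siCHKA replicates 1, 3 and 5 (circles) or 2, 4 and 6 (triangles) only. RALB stands alone at -2.20, RRAS is at 0.78, and NRAS is at 0.46 or 0.17 according to the set.

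**Figure D3:**
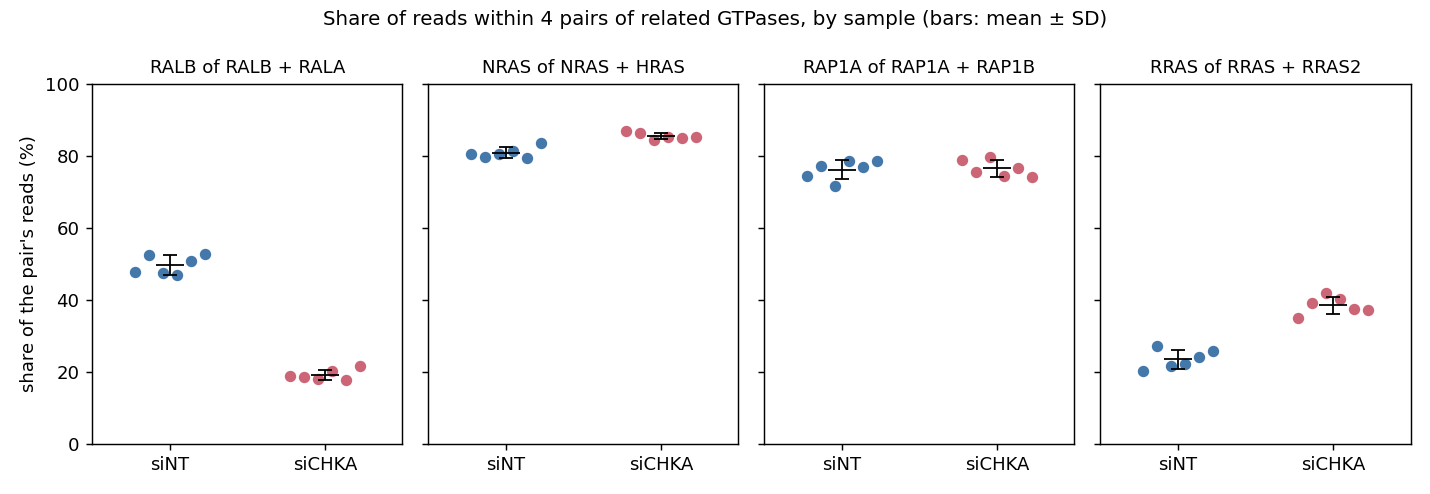
Share of each pair's reads, in percent, taken by RALB, NRAS, RAP1A and RRAS in their pairs, by sample, for 6 siNT and 6 siCHKA samples with the mean ± SD. The RALB share is 47.0 to 52.7% in siNT and 17.8 to 21.5% in siCHKA samples, while the RAP1A share overlaps.

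In the edgeR fit over all 14501 genes, 5 of the 9 members were lower (RALB, RAP1A, RAP1B, RAP2B and RRAS2) and 2 were higher (NRAS and RRAS) at an adjusted p below 0.05, where 30.1% of all genes were lower and 32.1% higher, 62.2% in all. RALA and HRAS were not called. The groups did not overlap for 4 of the 9, RALB, RAP1A and RAP1B below and RRAS above, against 40.6% of all genes. The members were chosen with these differences known, so these counts are no test of the members. The median log2 fold change of the 9 was -0.16, and that of all tested genes was 0.04. Only RALB was below -1 among the 9, a size that 4.51% of all genes passed. Summed over the 9 genes, the level was 518 ± 38.7 CPM after siCHKA and 557 ± 31.5 CPM after siNT (SD, n = 6 each), with overlap between the groups.

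Levels of different genes were compared per kilobase of exon, using the union of a gene's exons in GENCODE release 44. After siNT, NRAS was highest at 42.5 ± 3.48 CPM per kb, with no sample inside the range of another gene. RALB followed at 19.9 ± 0.866 CPM per kb, then HRAS at 18.0 ± 2.16 CPM per kb and RALA at 16.2 ± 1.56 CPM per kb. Their sample ranges overlapped, so the order of these 3 is not resolved.

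RAP1A at 13.1 CPM per kb, RRAS2 at 12.9 CPM per kb and RRAS at 12.4 CPM per kb came next, with ranges that overlapped each other. The highest samples of RAP1A and RRAS, at 15.1 and 14.2 CPM per kb, also lay inside the range of HRAS, which began at 13.7 CPM per kb. That of RAP1A lay inside the range of RALA as well, which began at 14.5 CPM per kb. RAP2B, at 7.30 ± 0.602 CPM per kb, and RAP1B, at 1.34 ± 0.0987 CPM per kb, were each below all samples of the genes above them (SD, n = 6). After siCHKA, RALB was at 4.32 ± 0.246 CPM per kb, the eighth of the 9, and its highest sample, 4.71 CPM per kb, was below the lowest of RAP2B, 5.88 CPM per kb. RRAS came second at 21.3 ± 1.04 CPM per kb, above every sample of HRAS and RALA. The value of RAP1B rests on an exon union of 16926 bases, which is from a later annotation than the one the reads were counted on and may be too long for it. With the canonical transcript as the length, HRAS was second after siNT, at 40.8 CPM per kb, with RALB next at 25.3 CPM per kb; RALB stayed eighth after siCHKA. On that length the siNT range of HRAS, 31.1 to 44.3 CPM per kb, overlapped that of NRAS, 39.2 to 47.5 CPM per kb. RRAS was then below HRAS after siCHKA, at 22.5 to 25.5 CPM per kb against 31.3 to 43.4 CPM per kb, so the order of RRAS and HRAS depends on the length used.

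**Figure D4:**
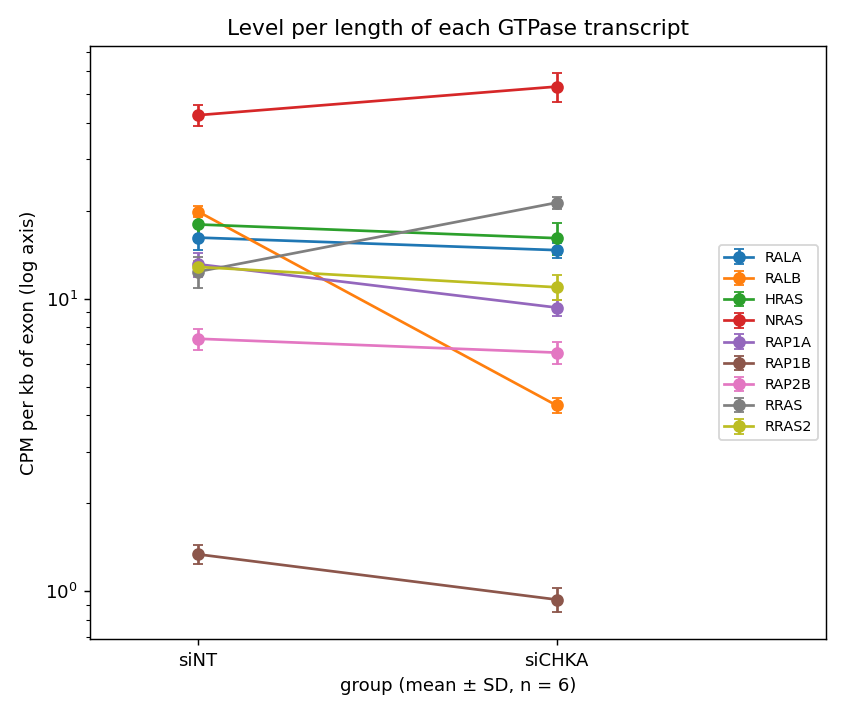
Level per length of each GTPase transcript, in CPM per kilobase of exon on a log axis, as group means with bars of 1 SD (n = 6), joined by a line per gene. RALB goes from 19.9 to 4.32 CPM per kb and RRAS from 12.4 to 21.3 CPM per kb, while NRAS is the highest in both groups.

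The 3′ UTRs were searched for 2 words of 7 bases, GCCAGAT and TGCCCTT, on the transcribed strand. These words came from an earlier search of these same counts for words in genes with lower levels, so nothing is supported by finding them here. GCCAGAT was present in 3 of the 9 genes, RALB with 2 copies and RAP1A and RAP1B with 1 each, and TGCCCTT in none. RALB, RAP1A and RAP1B are also the 3 members whose siCHKA samples all lay below their siNT samples. The word and the members were both chosen with this same contrast known, so nothing is read from the match. The 4 places are shown as a description, with 10 bases on either side and the word in capitals.
RALB copy at chr2:120293808-120293834, plus strand: tttgaattgcGCCAGATaggtcaatac
RALB copy at chr2:120294376-120294402, plus strand: ttctaagataGCCAGATagttagaaaa
RAP1B copy at chr12:68661676-68661702, plus strand: tccagacattGCCAGATgttccccagt
RAP1A copy across an exon junction, plus strand: gcagctctgaGCCAGATtacaggaatg

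The RAP1A copy begins at base 25 of the 3′ UTR, and its printed bases run in the spliced transcript from position 111709250 to position 111712442 of chromosome 1. Longer 3′ UTRs hold the word more often. It was found in 9.52% of the 12297 tested genes with a 3′ UTR, and 1.15% held 2 or more copies. Among 3′ UTRs within 25% of the length of that of RALB, 1450 bases, 6.45% held it and 0.243% held 2 or more copies. For the lengths of RAP1A and RAP1B, 4290 and 12652 bases, the share was 20.1% and 50.7%. The word was not found in RAP2B, with 7382 bases of 3′ UTR, nor in NRAS, with 3625 bases, where 30.6% and 16.2% of 3′ UTRs of like length hold it. Over all tested genes the median log2 fold change was -0.18 with the word and 0.02 without it. Among 3′ UTRs of like length it was -0.26 with and -0.03 without for the length of RALB, -0.14 and -0.01 for that of RAP1A, and 0.02 and -0.07 for that of RAP1B, where the order was the opposite. The word was picked from genes with lower levels in these same counts, so a lower median with it is no test. The part of the word in the differences was not tested.

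By Pearson correlation of log2 CPM over the 12 samples, the genes most like RALB were RPN2 at 0.999, BARD1 at 0.9986, SEC23A at 0.9981, HJURP at 0.9981 and IDH2 at 0.9977. The 12 samples fall into 2 groups, so these values mostly say that a gene was lower after siCHKA with little spread inside the groups. Their log2 fold changes were -1.32 for RPN2, a subunit of the oligosaccharyltransferase, -1.27 for BARD1, the partner of BRCA1, -2.72 for SEC23A, a COPII coat protein, -1.93 for HJURP, a centromere chaperone, and -4.02 for IDH2, a mitochondrial dehydrogenase. The likeness to RALB is one of shape and not of size, since IDH2 was left at 6.17% of its siNT level and BARD1 at 41.6%.

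The genes that load, switch off, modify or answer to these GTPases were taken from 6 lists with 114 genes, of which 94 were tested. At an adjusted p below 0.05 over all genes, by the quasi-likelihood test of edgeR, 29 of them (30.9%) fell and 34 (36.2%) rose, against 30.1% and 32.1% of all tested genes. Their median log2 fold change was 0.03, beside 0.04 for all tested genes. By list, the share that fell ran from 16.7% to 50% and the share that rose from 23.5% to 53.3%. The counts of each list below are to be set beside the shares of all tested genes, and no list was tested as a set.

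The enzymes that build and process the lipid anchor held the largest single difference. Of 17 tested genes, 7 fell, 4 rose and 6 were not called, with a median log2 fold change of 0.01. ICMT, the methyltransferase for the prenylated C-terminal cysteine encoded by the codons shown above, lay at 46.8 to 58.2 CPM in siCHKA samples and at 182 to 226 CPM in siNT samples. All siCHKA samples of ICMT were far below all siNT samples. Its log2 fold change was -1.97 (SE 0.06, edgeR adjusted p = 1.33e-13).

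FDPS, which makes farnesyl diphosphate, fell with a log2 fold change of -0.47 (edgeR adjusted p = 5.98e-06), which was -0.35 with siCHKA replicates 1, 3 and 5 only and -0.60 with replicates 2, 4 and 6 only. GGPS1, which makes geranylgeranyl diphosphate, rose by 0.42 on the log2 scale (adjusted p = 2.4e-07). PDE6D, a carrier of prenylated proteins between membranes, rose by 0.68 on the log2 scale, from 15.2 ± 1.53 to 24.4 ± 1.39 CPM (SD, n = 6 each; edgeR adjusted p = 2.83e-07).

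Of the exchange factors, 3 fell, 5 rose and 10 were not called among 18 tested, with a median of 0.12. RAPGEF2, which loads RAP proteins, fell with a log2 fold change of -0.59 (SE 0.10, edgeR adjusted p = 7.65e-05), which was -0.41 with siCHKA replicates 1, 3 and 5 only and -0.78 with replicates 2, 4 and 6 only. RGL1 and RGL2, both of the RALGDS family that links RAS to RAL, went opposite ways, with log2 fold changes of -0.42 for RGL1 and 0.49 for RGL2 (edgeR adjusted p = 0.00449 and 3.9e-06). For RGL2 the sets gave 0.38 and 0.59 in the same order. RGL1 was low, at 5.88 CPM after siCHKA and 7.97 CPM after siNT, and from 1 count file per sample its log2 fold change was -0.07 (adjusted p = 0.728). RAPGEF3, the cAMP-activated RAP exchange factor EPAC1, rose by 0.40 on the log2 scale (edgeR adjusted p = 0.00286), and lost the call with siCHKA replicates 1, 3 and 5 only, at 0.27 (edgeR adjusted p = 0.0629; 0.51 with replicates 2, 4 and 6 only), and from 1 count file per sample (adjusted p = 0.109).

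Of the GTPase activating proteins, 5 fell, 7 rose and 6 were not called among 18 tested, with a median of -0.01. RASA3, which acts on RAS and RAP, went from 46.5 ± 2.32 to 30.8 ± 1.15 CPM (SD, n = 6 each), a log2 fold change of -0.59 (edgeR adjusted p = 1.86e-08). RASA1, the activating protein recruited to growth factor receptors, fell by 0.36 on the log2 scale (adjusted p = 5.55e-05). SIPA1 and RAP1GAP2, which act on RAP proteins, rose by 0.52 and 0.43 on the log2 scale (edgeR adjusted p = 1.07e-06 and 1.66e-05). The catalytic subunits of the RAL GTPase activating complex, RALGAPA1 and RALGAPA2, named here for their role after their values were seen, rose by 0.43 and 0.47 on the log2 scale (edgeR adjusted p = 0.000293 and 0.000423). RALGAPB, the subunit they share, had a log2 fold change of -0.20 and was not called (adjusted p = 0.0566). That result was borderline, since 9 of 20 alternative fits called RALGAPB lower.

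**Figure D5:**
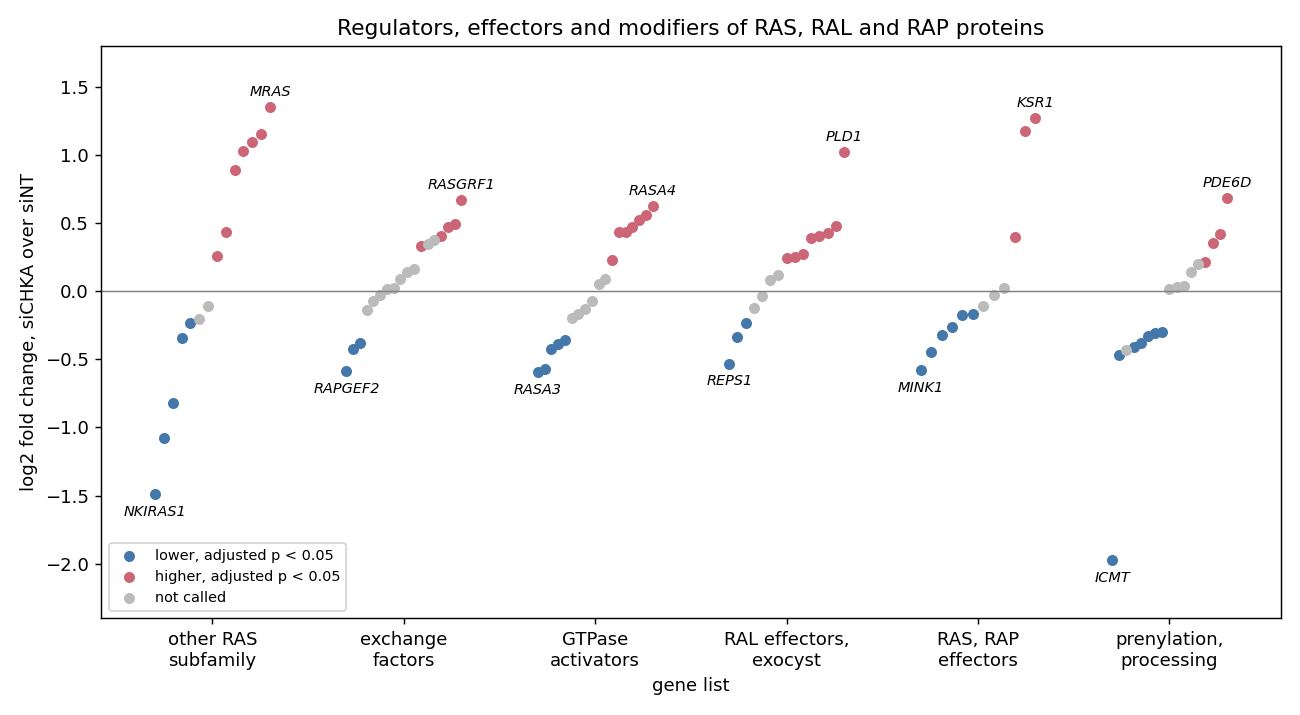
Log2 fold change, siCHKA over siNT, of the tested genes of 6 lists of regulators, effectors and modifiers of these GTPases, each gene a point in the order of its value; blue points were lower and red points higher at an adjusted p below 0.05 from edgeR, grey points were not called, and the lowest and highest gene of each list is named. ICMT, at -1.97, lies well apart from the rest of its list, and genes on both sides of 0 are called in every list.

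Among RAL effectors and exocyst subunits, 3 fell, 8 rose and 4 were not called out of 15, with a median log2 fold change of 0.24. PLD1, a phospholipase D that RAL binds and that releases choline from phosphatidylcholine, was at 10.5 to 13.1 CPM after siCHKA and at 4.64 to 7.30 CPM after siNT. The groups did not overlap, and the log2 fold change was 1.02 (SE 0.10, edgeR adjusted p = 1.56e-07). TBK1, the kinase that the RALB and exocyst complex engages, rose by 0.48 on the log2 scale (edgeR adjusted p = 9.2e-07). REPS1, an endocytic adaptor of the RAL pathway, fell with a log2 fold change of -0.53 (adjusted p = 1.31e-07). EXOC5 fell too, at -0.34 (edgeR adjusted p = 8.14e-05), with -0.23 from siCHKA replicates 1, 3 and 5 only and -0.45 from replicates 2, 4 and 6 only, while 6 of the 9 exocyst subunits in the list rose by 0.24 to 0.42 on the log2 scale. EXOC2 and EXOC8, the subunits that RAL proteins bind, named for that role after their values were seen, had log2 fold changes of -0.04 and 0.08 and were not called (edgeR adjusted p = 0.646 and 0.431).

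Of 12 tested RAS and RAP effectors, 6 fell, 3 rose and 3 were not called, with a median of -0.14. MINK1, a kinase that RAP2 binds, fell with a log2 fold change of -0.58 (edgeR adjusted p = 6.4e-07), and KRIT1, a junction protein that RAP1 binds, with -0.45 (adjusted p = 0.000129). The sets gave KRIT1 at -0.61 for siCHKA replicates 1, 3 and 5 and at -0.31 for replicates 2, 4 and 6. KSR2 and KSR1, scaffolds of the RAF pathway, rose by 1.17 and 1.27 on the log2 scale (edgeR adjusted p = 5.65e-06 and 0.000103). Both were low, with KSR1 at 0.773 CPM and KSR2 at 1.93 CPM after siNT, where 3 counts are worth 0.124 to 0.281 CPM.

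Of 14 tested genes for other GTPases of the subfamily, 5 fell, 7 rose and 2 were not called, with a median of 0.07. NKIRAS1, a RAS-like inhibitor of NF-κB signaling, was at 6.01 to 9.23 CPM after siCHKA and 19.2 to 23.9 CPM after siNT. Its groups were far apart, with a log2 fold change of -1.49 (SE 0.09, edgeR adjusted p = 2.51e-10). MRAS, which activates the RAF kinases through the SHOC2 phosphatase complex, rose from 5.35 ± 0.894 to 13.6 ± 1.28 CPM (SD, n = 6 each), a log2 fold change of 1.35 (edgeR adjusted p = 5.9e-09). DIRAS1 rose by 0.89 on the log2 scale (adjusted p = 1.33e-07), and RASL11B, at no more than 3.60 CPM in any sample, fell with -1.08 (edgeR adjusted p = 1.74e-05). Over the 6 lists GCCAGAT was found in 4 of the 29 genes that fell, in 3 of the 34 that rose and in 4 of the 31 not called, beside 9.52% of all tested genes with a 3′ UTR. Of the list genes named by smallest p, it was in 1 of 12 that fell, ICMT, and 1 of 12 that rose, KSR2. These shares were not matched for 3′ UTR length, which is 3887 bases in ICMT and 14187 bases in KSR2.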

How the data were processed

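RNA from 6 siCHKA and 6 siNT samples was sequenced as single-end reads of 40 bases. Per the study's methods and the submitters' processing notes, the authors aligned reads to GRCh37 (Ensembl release 64) with TopHat2 2.0.4, counted them per gene with HTSeq 0.5.3p9 and deposited raw counts, in 4 files per sample, which were summed here. HTSeq leaves out reads with several alignments and on overlapping genes, which lowers genes with near-identical copies. Symbols (82.8% of identifiers matched), lengths, 3′ UTRs, sequences and coordinates came from GENCODE release 44 on GRCh38.

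Counts were fitted in R 4.3.3 by edgeR 4.0.16 (genes kept by filterByExpr, TMM, quasi-likelihood test, no covariates, Benjamini-Hochberg adjustment over 14501 genes, threshold 0.05). CPM used TMM library sizes, and log2 CPM a prior count of 2. Floors of 3 counts cover counting error only. Replicates of a group differed by a chi-square per degree of freedom of 2.25 to 27.7, depending on the pair, so none was merged. These values cannot show whether the samples were separate cultures. On simulated counts of 14354 genes with 200 changed 2-fold in this comparison, edgeR recovered 93.5% with 13 false calls. The simulation used the same dispersion for every gene, independent samples, and as many genes raised as lowered. In the data 62.2% of genes were called, so these rates may not hold there.

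The members and lists were chosen with earlier results of these data known. Named genes were the members, CHKA, up to 2 genes in each direction per list with the smallest p, and the 5 genes closest to RALB. RASL10B and RASSF5 had no identifier. Alternatives were DESeq2 1.42.0, other normalization and filters, the replicate block, 1 count file per sample, siCHKA subsets and each replicate left out.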

Additional observations from a re-analysis of the deposited data

Results flagged for a closer look

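Of the 28 groups of 6 samples examined, 2 held a sample far from the others, where chance gives about 1 in 20 groups, or 1.4 here. HRAS in siNT replicate 6 was at 33.3 CPM, below the other 5 siNT samples at 43.8 to 47.4 CPM, and its gap to the nearest was 0.7787 of the whole range. Leaving out each sample in turn kept the HRAS log2 fold change between -0.23 and -0.12. RAP2B in siNT replicate 4 was at 71.2 CPM, above the other 5 at 56.9 to 61.4 CPM, with a gap of 0.6629 of the range, and the same leave-outs gave -0.19 to -0.12. Their causes were not tested.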

How the results depend on the processing

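Over 20 alternatives the log2 fold change of RALB stayed between -2.26 and -2.16, and that of CHKA between -4.27 and -3.59. The log2 fold change of NRAS was 0.17 with siCHKA replicates 2, 4 and 6 only, a move beyond the replicate spread; the cause was not tested. No direction reversed among the members, CHKA or the named list genes; KSR1 had a value in 18 of the 20, since it did not pass the filter with at least 10 counts in every sample or with 1 count file per sample. Over all genes, 3467 to 4686 were called lower and 3413 to 4781 higher, and over the lists 25 to 32 lower and 27 to 37 higher. From 1 count file per sample, with fewer reads, 2 exchange factors were higher and 3 RAS and RAP effectors lower; with siCHKA replicates 1, 3 and 5 only, 7 processing genes were higher and 3 RAS and RAP effectors lower. Same-numbered samples did not deviate together (mean correlation -0.04, against 0.01 for other numbers), so the numbers are not taken as pairs. With the replicate block, RALB was at -2.20, 4273 genes were lower and 4494 higher, and 29 list genes were lower and 33 higher. Levels per length with the canonical transcript were chosen after seeing the data. Depth limits list genes near 1 CPM, where 3 counts are worth 0.124 to 0.281 CPM.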
